A study of Homo sapiens with 6 samples.

Results

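The genes of the MICOS complex and of the SAM bridge that joins it to the outer mitochondrial membrane were followed in human PC3 cells after silencing of *Mic60*. They were taken by name: the 7 MICOS genes *IMMT*, which encodes Mic60, *CHCHD3*, *CHCHD6*, *APOO*, *APOOL*, *MICOS10* and *MICOS13*, and the 3 SAM bridge genes *SAMM50*, *MTX1* and *MTX2*. These are 10 of the 57736 Ensembl genes in the deposited count table, and each symbol matched 1 row. PC3 is an established prostate cancer cell line. The libraries came from cells given a control siRNA (siCTRL, n = 3) or a *Mic60*-directed siRNA (siMic60, n = 3). Other labels of the same libraries read Mic60 WT and Mic60 KO, and the siRNA names are used here. No time after transfection or siRNA dose is given for these libraries, and a single group stands for silencing, so an effect of that siRNA on other transcripts cannot be told apart from the loss of Mic60. The libraries are described as replicates. The supplement of the study speaks in general of independent biological replicates, but neither it nor the labels say how these PC3 libraries were cultured, so the tests measure the spread between libraries, part of which may be technical.

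MICOS sits at the crista junction, the neck where a fold of the inner mitochondrial membrane opens toward the boundary membrane. It holds these junctions open and ties them to the outer membrane through SAM, the machine that inserts β-barrel proteins. In cells, Mic60 is the subunit around which the others are assembled, and loss of the Mic60 protein is known to destabilise several partner proteins. The measurements below are of RNA only and carry no information on protein.

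Libraries were made with a 3′ mRNA kit that reads each polyadenylated transcript near its end. Total counts ran from 6644495 to 8779877 per library. Levels are given as counts, or as CPM, counts scaled to a common library size with TMM factors, and 14653 genes that reached 10 counts in 3 or more libraries were tested, all 10 members among them. A gene is said to have risen or fallen at an adjusted p under 0.05 in edgeR's quasi-likelihood test, with Benjamini-Hochberg adjustment over all tested genes. The epithelial keratins and *EPCAM*, 4 genes in all, summed to 1523 to 2042 CPM in siCTRL and 1019 to 1066 CPM in siMic60 libraries (scaled by library totals). Most of the sum was *KRT19*, with 7843 to 11910 counts in siCTRL and 4072 to 5312 in siMic60 libraries, while *KRT8* went the other way, with 898 to 1062 and 1288 to 1661 counts. The prostate antigen gene *KLK3* had no count in any library. Of the leukocyte markers, *CD3E* had no count and the list summed to 0.342 to 2.48 CPM over the 6 libraries. Of 4 fibroblast markers, *DCN* had no count, and the list summed to 285 to 369 CPM in siCTRL and 45.8 to 63.5 CPM in siMic60 libraries, nearly all of it from *COL1A1*. Of 3 endothelial markers, *VWF* and *CDH5* had no count and *PECAM1* matched no row. The part that the shifts in keratins and *COL1A1* have in the member results was not tested. In bulk RNA, fewer cells of a kind and less RNA per cell cannot be told apart.

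Besides *IMMT*, 3 members passed the test. Their promoter windows, the 250 bases before the annotated start (RefSeq, GRCh38.p14), are shown because these genes passed the threshold. Capitals mark the match to the core letters of the motif bound by the transcription factor ZNF143.
APOO, chrX:23907939-23908188, minus strand: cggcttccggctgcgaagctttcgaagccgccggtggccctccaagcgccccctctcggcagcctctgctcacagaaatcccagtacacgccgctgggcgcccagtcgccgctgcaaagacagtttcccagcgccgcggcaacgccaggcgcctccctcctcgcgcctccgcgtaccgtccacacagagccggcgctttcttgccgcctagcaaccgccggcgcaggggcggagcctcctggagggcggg
MICOS13, chr19:5680517-5680766, minus strand: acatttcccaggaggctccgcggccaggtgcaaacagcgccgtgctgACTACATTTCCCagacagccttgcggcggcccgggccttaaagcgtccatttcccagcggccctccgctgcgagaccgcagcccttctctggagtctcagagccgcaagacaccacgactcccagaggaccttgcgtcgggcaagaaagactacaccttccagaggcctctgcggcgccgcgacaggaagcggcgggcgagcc
SAMM50, chr22:43955192-43955441, plus strand: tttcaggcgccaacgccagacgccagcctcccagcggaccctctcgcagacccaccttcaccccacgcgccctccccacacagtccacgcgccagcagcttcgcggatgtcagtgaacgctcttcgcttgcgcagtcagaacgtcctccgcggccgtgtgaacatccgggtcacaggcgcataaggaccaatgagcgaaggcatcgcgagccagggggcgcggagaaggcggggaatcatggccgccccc
The windows were rich in G and C, at 71.6% for *APOO*, 65.6% for *MICOS13* and 67.2% for *SAMM50*. *MICOS13* has a further annotated start, whose window is not shown. Motif letters were searched on both strands of the 12 windows listed for the 10 members. The ZNF143 core was in 1 window, that of *MICOS13*, and in 1.67% of all 35116 windows of this length. The NRF1 palindrome, CCGGAAGT (GABPA and other ETS factors) and AAGATGGC (YY1) were in none of the 12, and in 1.03%, 3.42% and 1.36% of all windows. The ZNF143 core was chosen after the *MICOS13* sequence had been read. A match is a run of letters only and does not show binding.

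*IMMT* (ENSG00000132305) encodes the membrane-anchored core of MICOS and is the targeted gene. It was counted 742, 729 and 733 times in siCTRL and 38, 60 and 74 times in siMic60 libraries. The control libraries lay within a few CPM of each other, and every silenced library was far below them. Relative to the siCTRL mean, the siMic60 libraries kept 6.46%, 8.14% and 9.46% of the *IMMT* level in CPM. The fitted log2 fold change was −3.62 (95% interval −3.95 to −3.29, adjusted p = 4.29e-10 from edgeR). Ordered by fitted log2 fold change, this was the 22nd lowest of the 14653 genes tested. The pseudogene *IMMTP1*, a copy that could have taken reads, had no count in any library.

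Among the other 9 members, *APOO* and *MICOS13* rose, *SAMM50* fell, and 6 did not pass the test. The 3 that passed are 33.3% of the 9, against 35.5% of all tested genes, of which 17.7% rose and 17.9% fell. The libraries of the 2 groups did not overlap for 3 of the 9, 1 higher and 2 lower in siMic60, against 47.9% of all tested genes, 23.7% higher and 24.1% lower. Both shares were close to or under those of the whole transcriptome. The median log2 fold change of the 9 was 0.27, and that of all tested genes was 0.0022. The lowest bound of any of their 95% intervals was −0.77 (58.4% of the siCTRL level, for *CHCHD6*), well above the *IMMT* bound nearest to 0, −3.29. None of the 9 fell by an amount near that of *IMMT* at this depth.

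**Figure D1:**
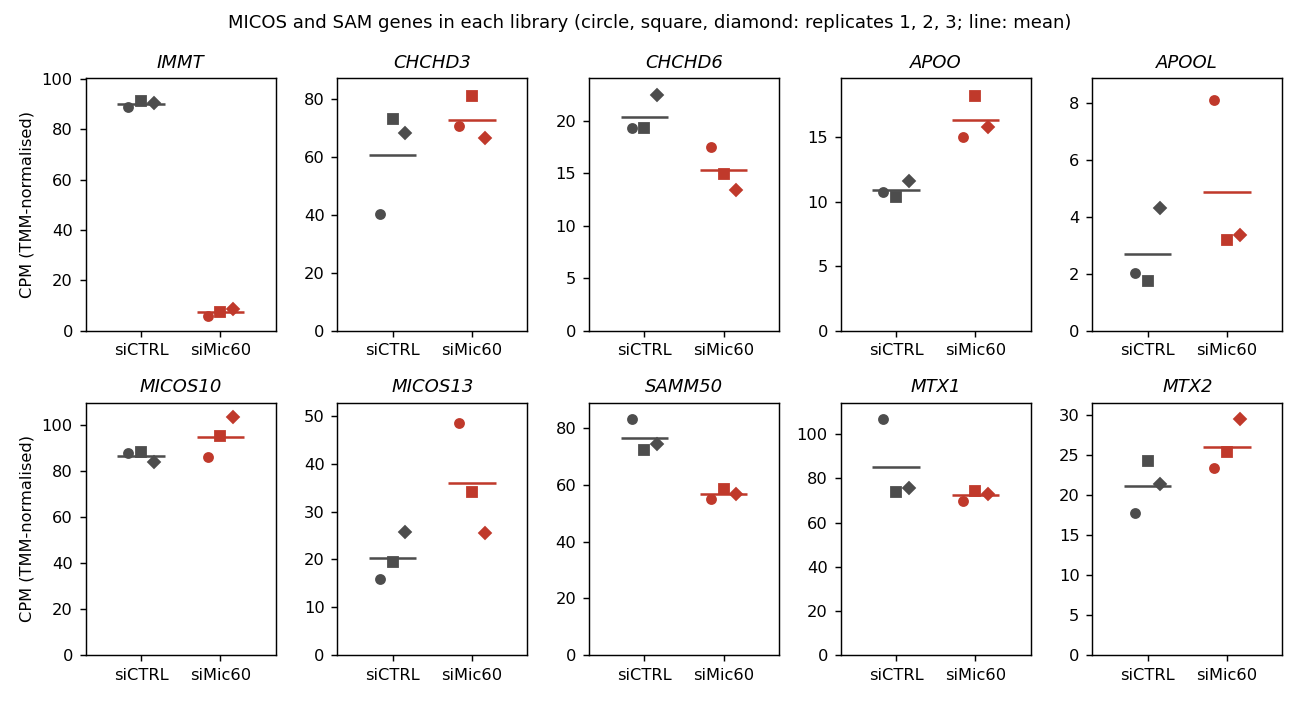
CPM (TMM-normalised, linear axes from 0) of the 10 MICOS and SAM genes in each of the 3 siCTRL (grey) and 3 siMic60 (red) libraries, with a line at each mean. The *IMMT* points drop from 88.9 to 91.2 CPM in siCTRL to 5.83 to 8.53 CPM in siMic60, while the partner genes shift far less and 6 of the 9 overlap between groups.

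*CHCHD3* (ENSG00000106554) encodes MIC19, the subunit that attaches Mic60 to SAMM50. It had 336, 584 and 552 counts in siCTRL and 460, 660 and 577 counts in siMic60 libraries. The groups overlapped, and siCTRL replicate 1 was lower than all the others. The log2 fold change was 0.27 (95% interval −0.12 to 0.65, adjusted p = 0.277 from edgeR), and it was 0.039 without siCTRL replicate 1.

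*CHCHD6* (ENSG00000159685) encodes MIC25, a close relative of MIC19 with the same kind of cysteine-rich domain. It had 161, 154 and 182 counts in siCTRL and 114, 122 and 116 counts in siMic60 libraries. In CPM, every siMic60 library (13.4 to 17.5) was below every siCTRL library (19.3 to 22.4). With a log2 fold change of −0.42 (95% interval −0.77 to −0.064), the gene did not pass the test over all genes at adjusted p = 0.063 from edgeR. It passed when libraries were scaled by their totals (adjusted p = 0.0384) and without siMic60 replicate 1 (adjusted p = 0.0473).

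The paralogs were compared within each library, where scaling cancels. The log2 ratio of *CHCHD3* to *CHCHD6* counts was 1.06, 1.92 and 1.60 in siCTRL and 2.00, 2.43 and 2.30 in siMic60 libraries. The ratio was higher in every siMic60 library than in any siCTRL library. The group means differed by 0.72 on the log2 scale, or from 2.87 to 4.74 counts of *CHCHD3* for each of *CHCHD6*. The two-sided exact permutation test gave p = 0.1, the smallest that 3 against 3 libraries allow, and p = 0.125 after adjustment over the 5 ratios and sums tested. Without siCTRL replicate 1 the difference was 0.49.

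*MICOS10* (ENSG00000173436) encodes MIC10, a small hairpin protein that forms oligomers and bends the membrane at the junction. It had 732, 705 and 681 counts in siCTRL and 560, 777 and 897 counts in siMic60 libraries. The groups overlapped at 84.0 to 88.2 and 85.9 to 103 CPM. Its log2 fold change of 0.13 had the narrowest interval among the MICOS genes (95% interval −0.12 to 0.38, adjusted p = 0.418 from edgeR), which corresponds to folds of 0.92 to 1.30. The read-through gene *MICOS10-NBL1* had no count, and the downstream gene *NBL1*, which overlaps *MICOS10* on the same strand in GENCODE 29, rose from 40.7 to 54.6 CPM (log2 fold change 0.42, adjusted p = 0.0291 from edgeR). *CAPZB*, which overlaps *MICOS10* on the opposite strand, had 2939 to 5164 counts. Counting could have divided reads between overlapping genes in a way the sources used here do not describe.

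*MICOS13* (ENSG00000174917) encodes MIC13, also called QIL1, which joins the MIC10 and Mic60 parts of the complex. It had 132, 155 and 209 counts in siCTRL and 317, 278 and 221 counts in siMic60 libraries. In CPM it was 15.8, 19.4 and 25.8 in siCTRL and 48.6, 34.0 and 25.5 in siMic60 libraries, so that the lowest silenced library lay just under the highest control. *MICOS13* rose 1.76-fold (log2 fold change 0.82, 95% interval 0.35 to 1.29, adjusted p = 0.0097 from edgeR). Without siMic60 replicate 1, the highest library, the log2 fold change was 0.56 and the gene no longer passed (adjusted p = 0.0587). In GENCODE 29 it overlaps the ribosomal protein gene *RPL36* and *HSD11B1L* on the opposite strand. Before scaling, *RPL36* had 8151, 6958 and 6593 counts in siCTRL and 4652, 6972 and 6505 counts in siMic60 libraries. *HSD11B1L* fell (log2 fold change −1.89, adjusted p = 0.00121 from edgeR). Since the strand setting of the counting is not given in the sources used here, reads of these genes may not be fully separated.

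*APOO* (ENSG00000184831) encodes MIC26, an apolipoprotein-like subunit of the MIC10 part of the complex. It had 90, 83 and 94 counts in siCTRL and 98, 149 and 137 counts in siMic60 libraries. After scaling, every siMic60 library (15.0 to 18.2 CPM) was above every siCTRL library (10.4 to 11.6 CPM). *APOO* rose (log2 fold change 0.58, 95% interval 0.21 to 0.96, adjusted p = 0.0168 from edgeR). It no longer passed without siCTRL replicate 2 (adjusted p = 0.0678) or without siMic60 replicate 2 (adjusted p = 0.064), with log2 fold changes of 0.54 and 0.51. Its listed pseudogenes *APOOP1* to *APOOP5* had no counts.

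*APOOL* (ENSG00000155008) encodes MIC27, the related subunit that binds cardiolipin, the signature lipid of the inner membrane. It was the least counted member, with 17, 14 and 35 counts in siCTRL and 53, 26 and 29 counts in siMic60 libraries. The groups overlapped and siMic60 replicate 1 was the highest. The log2 fold change of 0.82 came with a 95% interval from −0.10 to 1.75 (adjusted p = 0.156 from edgeR). It passed only without siCTRL replicate 3 among the 12 alternatives in which the gene was tested (log2 fold change 1.32, adjusted p = 0.0436), and was 0.28 without siMic60 replicate 1. At this depth a rise like that of *APOO* could be neither shown nor set aside. The log2 ratio of *APOO* to *APOOL* was 2.07 ± 0.59 in siCTRL and 1.85 ± 0.86 in siMic60 libraries (SD, n = 3 each; two-sided exact permutation p = 0.6, adjusted p = 0.6).

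Together, the 6 MICOS genes other than *IMMT* summed to 176, 212 and 216 CPM in siCTRL and 246, 246 and 228 CPM in siMic60 libraries. The sum was higher in every siMic60 library than in any siCTRL library. The group means differed by 38.6 CPM, and the siMic60 mean was 119% of the siCTRL mean (two-sided exact permutation p = 0.1, the smallest possible, and adjusted p = 0.125). Without siCTRL replicate 1 the difference was 25.9 CPM. The 3′ kit reads each transcript near its end, so CPM of different genes can be read as approximate counts of transcript ends. How far reads shared with overlapping genes shift this scale was not tested. On that scale *IMMT* made up 31.0% ± 2.21 of the 7 MICOS genes' CPM in control and 2.94% ± 0.647 in silenced cells (SD over 3 libraries each). *MICOS10* made up 29.9% ± 2.94 and 38.5% ± 4.87, and *CHCHD3* 20.5% ± 4.68 and 29.3% ± 2.17. *CHCHD6* went the other way, from 6.99% ± 0.549 to 6.17% ± 0.691. When *IMMT* takes a smaller share of the sum, the other genes together must take a larger one, so these shares describe the mixture and not a rise of each gene. For each CPM of *IMMT* there were 1.98 to 2.39 CPM of partner RNA in siCTRL and 26.7 to 42.2 CPM in siMic60 libraries.

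**Figure D2:**
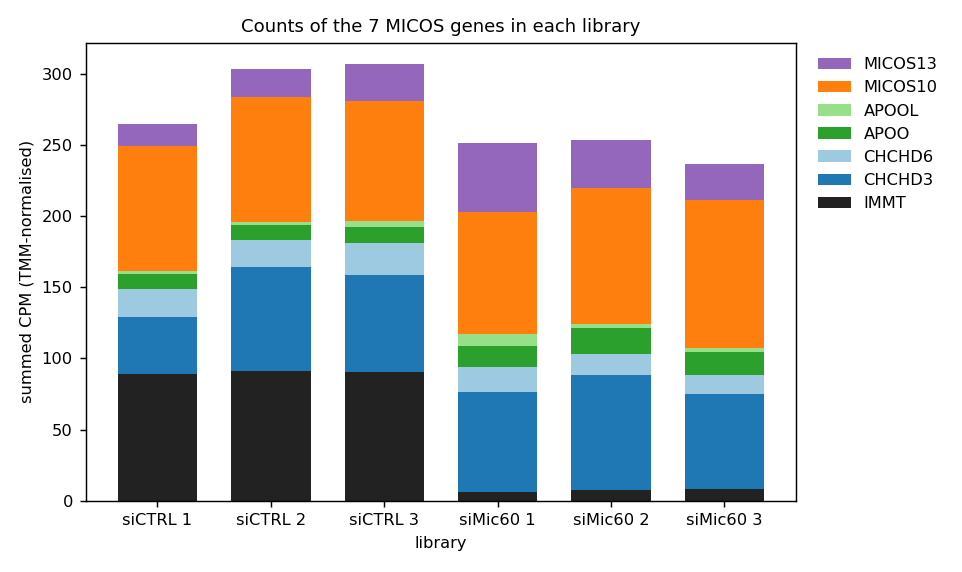
Summed CPM (TMM-normalised, stacked) of the 7 MICOS genes in each library. The black *IMMT* segment nearly disappears in the 3 siMic60 libraries, while the 6 partner segments together reach 228 to 246 CPM, against 176 to 216 CPM in siCTRL.

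*SAMM50* (ENSG00000100347) encodes the β-barrel channel at the centre of SAM, the outer membrane anchor of MICOS. It had 695, 577 and 603 counts in siCTRL and 358, 477 and 492 counts in siMic60 libraries. All siMic60 libraries (54.9 to 58.4 CPM) were below all siCTRL libraries (72.2 to 83.3 CPM). *SAMM50* fell by 0.43 on the log2 scale, to 74.0% of the siCTRL level (95% interval of the log2 fold change −0.69 to −0.18, adjusted p = 0.00972 from edgeR). It passed in each of the 13 alternatives, with log2 fold changes from −0.49 to −0.37 and adjusted p up to 0.0372. No other of the 9 genes passed in all of them. In GENCODE 29 it overlaps *PARVB*, which did not pass (log2 fold change −0.16, adjusted p = 0.417 from edgeR), and *PNPLA3*, with 2 to 17 counts, both on the same strand.

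*MTX1* (ENSG00000173171) and *MTX2* (ENSG00000128654) encode the metaxins, which cap SAMM50 on the cytosolic side. *MTX1* had 893, 589 and 613 counts in siCTRL and 456, 607 and 634 counts in siMic60 libraries. Apart from siCTRL replicate 1 at 107 CPM, the other 5 libraries lay between 69.9 and 75.6 CPM. Its log2 fold change was −0.24 (95% interval −0.55 to 0.071, adjusted p = 0.221 from edgeR), and −0.045 without that library. *MTX1P1*, the neighbouring pseudogene, had no count, and *THBS3*, which overlaps *MTX1* on the opposite strand, had 22 to 41 counts. *GBAP1*, also on the opposite strand, had 35, 7 and 0 counts in siCTRL and 28, 31 and 33 counts in siMic60 libraries. *MTX2* had 148, 194 and 173 counts in siCTRL and 152, 207 and 255 counts in siMic60 libraries. Its groups overlapped, and its log2 fold change was 0.31 (95% interval −0.039 to 0.65, adjusted p = 0.158 from edgeR).

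The log2 ratio of *MTX1* to *MTX2* was lower in every siMic60 library, at 1.58, 1.55 and 1.31 against 2.58, 1.60 and 1.82 in siCTRL. The difference was −0.52 (two-sided exact permutation p = 0.1, the smallest possible, and adjusted p = 0.125), and −0.23 without siCTRL replicate 1. The 3 SAM genes together summed to 208, 170 and 171 CPM in siCTRL and 148, 158 and 159 CPM in siMic60 libraries. Each siMic60 library was below each siCTRL library, and the mean was 84.7% of the siCTRL mean (two-sided exact permutation p = 0.1, adjusted p = 0.125). The difference of −28.0 CPM was −15.6 CPM without siCTRL replicate 1, the library with the high *MTX1* count.

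**Figure D3:**
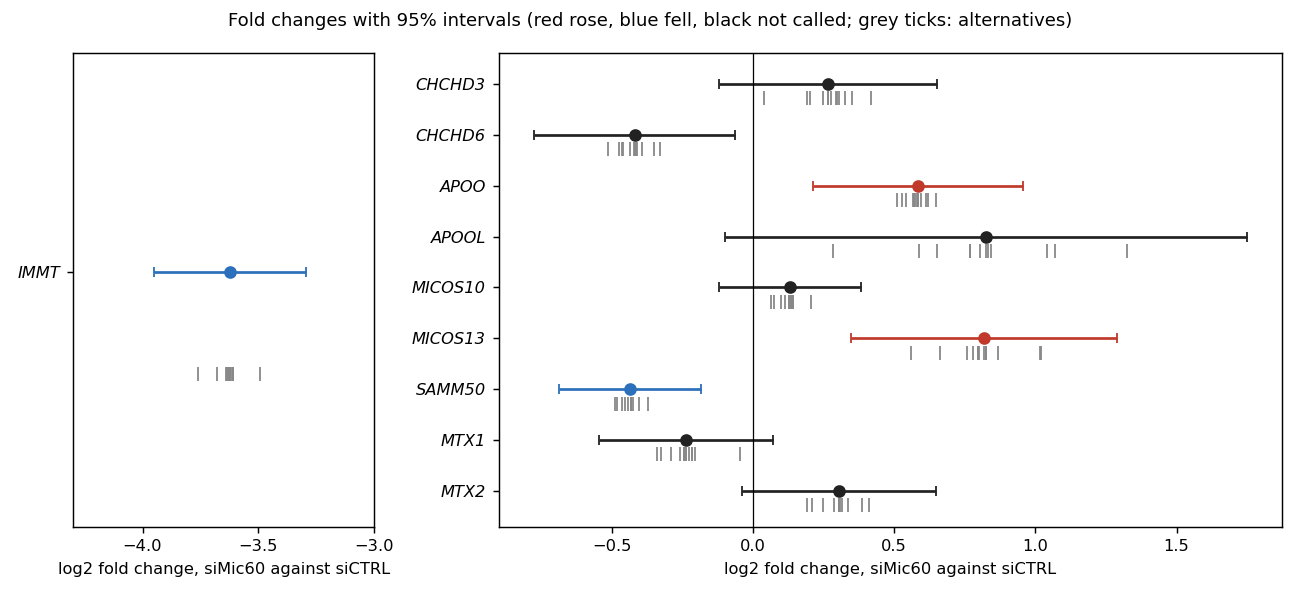
Log2 fold change (siMic60 against siCTRL) of *IMMT* (left, on its own axis) and of the 9 other genes (right), with points and 95% intervals from the edgeR fit and grey ticks for the alternatives. *IMMT* lies at −3.62, *APOO* and *MICOS13* are in red (rose), *SAMM50* is in blue (fell), and no tick of the 9 genes crosses 0.

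Genes whose products work with MICOS were then read from 6 lists, 43 genes in all, and every one was tested. Of these, 6 rose and 3 fell, or 20.9% against 35.5% of all tested genes, and their median log2 fold change was 0.038. Of 8 MICOS contacts, only *ARMC1*, which takes part in mitochondrial distribution, passed. It rose from 92.6 to 137 CPM (log2 fold change 0.57, adjusted p = 0.00165 from edgeR) and passed in every alternative. *DNAJC11*, a chaperone-like protein that copurifies with MICOS and SAM, had a log2 fold change of 0.077 (adjusted p = 0.688 from edgeR).

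Of 9 genes around *OPA1*, the GTPase that shapes cristae from within, 3 rose and none fell by edgeR (1 was lower at an unadjusted p under 0.05, and none with DESeq2). These are 33.3% and 0%, against 17.7% and 17.9% of all tested genes. *OPA1* itself rose from 59.2 to 77.2 CPM (log2 fold change 0.38, adjusted p = 0.0245 from edgeR). *YME1L1*, a protease that cuts OPA1, rose 1.29-fold (adjusted p = 0.0346 from edgeR) and the prohibitin gene *PHB1*, an inner membrane scaffold, rose 1.33-fold (adjusted p = 0.00954 from edgeR). The number that rose was 1 with libraries scaled by their totals, and also 1 without siCTRL replicate 1, without siCTRL replicate 2 or without siMic60 replicate 3. It was 2 with the replicate number as a block, without siCTRL replicate 3, and without siMic60 replicate 1 or 2. With a library left out it was thus at most 2. The number that fell was 1 with library totals and 1 without siMic60 replicate 1. *OMA1*, the stress-activated protease of OPA1, was at 4.51 and 5.06 CPM (adjusted p = 0.699 from edgeR).

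Rows of ATP synthase dimers curve the crista rim. Of 7 genes listed around this dimer, 3 fell and none rose by edgeR. In this list 1 gene was higher at an unadjusted p under 0.05, and 1 rose with DESeq2. The list takes in the inhibitory factor and a peripheral stalk subunit, so it is wider than the dimer-forming part. The 3 that fell are 42.9% of the list, against 17.9% of all tested genes. *ATP5IF1*, the inhibitory factor, fell from 237 to 174 CPM (log2 fold change −0.44, adjusted p = 0.017 from edgeR). *ATP5PB*, the peripheral stalk subunit b, fell from 228 to 179 CPM (adjusted p = 0.0299 from edgeR), and *ATP5ME*, subunit e, from 329 to 230 CPM (adjusted p = 0.0375 from edgeR). The groups overlapped for *ATP5ME*, at 437, 299 and 252 CPM in siCTRL and 201, 282 and 206 CPM in siMic60 libraries. The number that fell was 0 without siMic60 replicate 1, and 1 without siCTRL replicate 1 or without siMic60 replicate 3. It was 2 without siCTRL replicate 2 and 4 without siMic60 replicate 2. The number that rose was 1 without siMic60 replicate 1. *ATP5MK* was at 145 and 179 CPM and did not pass (adjusted p = 0.0608 from edgeR).

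Of 11 genes of cardiolipin synthesis and remodelling, 9.1% passed, against 35.5% of all tested genes. Only the acyltransferase gene *LCLAT1* did so. It rose 1.32-fold at an adjusted p = 0.0462 from edgeR, and no gene of the list rose in 12 of the 13 alternatives. In 4 of them (DESeq2, library totals, a minimum of 50 counts, and without siCTRL replicate 2) 1 gene of the list fell. The cardiolipin synthase gene *CRLS1* was at 47.1 and 48.7 CPM. None of the 3 genes for import into the intermembrane space, the route that oxidises and traps proteins such as MIC19, passed in the edgeR fit (0 of 3 also at an unadjusted p under 0.05) or in any alternative, DESeq2 included. Of all 14653 tested genes, 3267 were higher and 3279 lower at that unadjusted p. The receptor gene *CHCHD4* was at 44.1 and 43.6 CPM. Of 5 genes for β-barrel proteins that SAM inserts, only *TOMM40*, the channel of the outer membrane import machine, passed (20% of the list). It rose 1.39-fold (adjusted p = 0.0406 from edgeR), with groups that overlapped at 34.5 to 58.9 CPM in siCTRL and 58.3 to 72.2 CPM in siMic60. The number of the list that rose was 0 in 5 alternatives, namely with library totals, without siCTRL replicate 1 or 2, and without siMic60 replicate 1 or 2. The pore genes *VDAC1*, *VDAC2* and *VDAC3* had log2 fold changes of −0.11, 0.064 and 0.15.

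**Figure D4:**
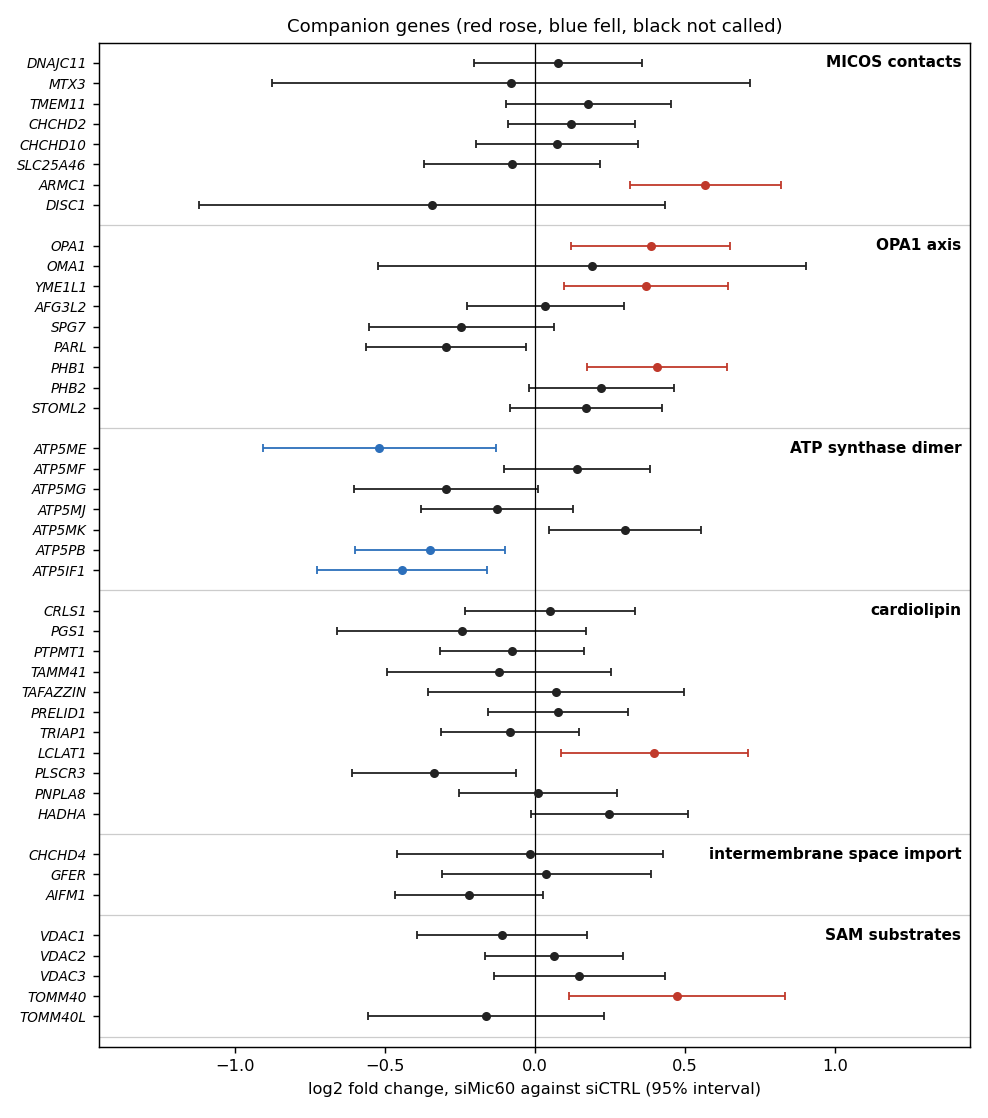
Log2 fold change (siMic60 against siCTRL) with 95% intervals for the 43 genes of the 6 lists, in red where a gene rose, blue where it fell and black where it did not pass. Most points lie within 0.5 of 0, and 9 of the 43 are coloured.

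The profile of *IMMT* over the 6 libraries was set beside those of the 580 tested genes that averaged 5 CPM or more and fell 2-fold or more. The 3 with the highest Pearson r on log2 CPM were *PIGH* (r = 0.999), an enzyme gene of the glycosylphosphatidylinositol anchor pathway, *TRBC2* (r = 0.999), a T cell receptor constant gene, and *SNTB1* (r = 0.999), a syntrophin gene. Their log2 fold changes were −1.04, −2.22 and −2.43. These genes were selected for their fall, the 6 points form 2 groups, and the libraries are the same for all genes, so r here mostly repeats the gap between the groups.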

How the data were processed

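Gene counts were deposited by the authors as whole numbers without normalization, 1 column for each of 3 siCTRL and 3 siMic60 PC3 libraries. Per the labels, RNA was extracted with Trizol and libraries were made with the QuantSeq 3′ kit. RSEM 1.2.3, DESeq2 and the build hg19 (GRCh37) are listed, without roles, in the submitters' processing notes. Since RSEM estimates counts, the whole numbers may be rounded estimates. For the aligner, annotation release and strand setting, nothing is given in the sources used here.

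Symbols were assigned to 40267 of 57736 rows, 39501 from current names and 766 from GENCODE 29. Annotation is on another build, so overlaps between genes are named without coordinates. Tests used edgeR 4.0.16 in R 4.3.3 (TMM, at least 10 counts in at least 3 libraries, quasi-likelihood test, Benjamini-Hochberg adjustment over 14653 genes, threshold 0.05). The 95% intervals use the standard error implied by the F statistic. Ratios used a prior count of 1. All 10 members are named, and in each list up to 4 genes that passed, by adjusted p, with others added for their role or their overlap with a member after their values were seen. The members and lists were chosen with earlier results of these data known. Alternatives were DESeq2 1.42.0, limma-trend (limma 3.58.1, prior count 2), DESeq2 size factors, library totals, no minimum, a minimum of 50 counts, a replicate block, 5 counts added in ratios, and each library left out. The edgeR step was tested on simulated data. Between libraries of a group, the chi-square of counts per degree of freedom was 3.54 to 13.5, above the value near 1 of a library sequenced again, which does not show whether they came from separate cultures. Some of the marker genes are not reported here.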

Additional observations from a re-analysis of the deposited data

How the results depend on the processing

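The *IMMT* fall passed in all 13 alternatives, with log2 fold changes from −3.76 to −3.49. Of 116 fold changes of the other 9 members under the alternatives, 110 kept their direction and side of the threshold and 0 changed sign. With library totals, which moved the median of all genes to −0.055, 2 of the 9 fell. With each library left out in turn, the number of the 9 that rose ran from 1 to 3, the number that fell from 1 to 2, and the *APOO* to *APOOL* log2 ratio difference from −0.56 to 0.26, changing sign only without siMic60 replicate 1. Their causes were not tested. *APOOL* was not tested at a minimum of 50 counts.

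Replicate numbers did not pair the libraries: deviations from the group means correlated at −0.09, −0.037 and 0.035 between libraries of the same number. With the replicate number as a block, *IMMT* had a log2 fold change of −3.64, and 2 of the 9 rose and 1 fell, as without it, while over all genes 2384 rose and 2382 fell against 2587 and 2617. Depth limits *APOOL* most, at 14 to 53 counts per library. The exact permutation test of 3 against 3 libraries cannot go below p = 0.1 for single ratios and sums.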
